A study of Homo sapiens with 24 samples.

Results

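The cytosolic ribosomal protein genes were taken as every gene symbol in the count files that begins with RPL or RPS, goes on with a number and ends there or in A, X or L, together with RPLP0, RPLP1, RPLP2 and RPSA. This gave 82 of the 23106 symbols. They comprised 31 genes of the small subunit, 46 of the large subunit and 5 paralogs or duplicate copies, among them RPL3L, RPL10L, RPL39L and RPS27L. FAU, which encodes a ribosomal protein fused to a ubiquitin-like protein, and GNB2L1, which encodes the ribosome-bound scaffold RACK1, fall outside the rule.

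The libraries were made from polyA-selected RNA of RCC4+VHL cells, a renal carcinoma line in which stable transfection restored VHL, the protein that targets HIF-α for degradation when oxygen is present. All 24 libraries carry this transgene, so the line without VHL is not part of any comparison here. There were 4 groups of 6 replicates. The normoxia + DMSO and normoxia + ITE groups were kept at 21% oxygen and the hypoxia + DMSO and hypoxia + ITE groups at 0.5% oxygen for 6 h, with 100 nM ITE (an indole ligand of AHR) or 0.1% DMSO vehicle for 6 h.

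Ribosomal proteins are made in near-equal amounts and assemble on ribosomal RNA in the nucleolus into a small subunit, which decodes the mRNA, and a large subunit, which forms peptide bonds. Their mRNAs are short, abundant and stable, and most begin with a 5′ terminal oligopyrimidine (TOP) tract, a C followed by a run of C and U, through which mTORC1 and LARP1 set their translation. Low oxygen lowers mTORC1 signalling, partly through DDIT4, so these mRNAs are known for control of their translation, which mRNA counts do not measure.

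Of the 82 genes, 64 had a start window in the RefSeq promoter table (GRCh38.p14), 10 of them with several annotated starts. A C followed by at least 4 bases that were each C or T is called a tract here (plus strand of the gene only). Such a C lay within 5 bases of an annotated start in 53 of the 64 (82.8%), against 25.2% of the 27305 genes in the table. The run could have begun farther upstream. In 46 of 64 (71.9%) and 5.14%, the annotated start itself was such a C, and the run could again have begun upstream. The windows of 10 bases before to 20 bases from the start are shown for genes that the comparisons turn on. Capitals mark the first such tract from its first C within 5 bases of the start. In RPL29 and RPS7 the run began before the capitals.
RPS9, chr19:54200848-54200877, plus strand: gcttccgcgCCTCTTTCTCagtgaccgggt
RPS3, chr11:75399508-75399537, plus strand: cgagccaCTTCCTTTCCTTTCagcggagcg
RPL28, chr19:55385922-55385951, plus strand: cctcgCCTTCCTCTTTCCgtctcaggtcgc
RPL29, chr3:51995876-51995905, minus strand: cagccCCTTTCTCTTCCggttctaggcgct
RPS7, chr2:3575250-3575279, plus strand: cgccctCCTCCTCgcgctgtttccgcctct
RPS25, chr11:119018324-119018353, minus strand: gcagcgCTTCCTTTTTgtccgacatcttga
RPS27L, chr15:63157458-63157487, minus strand: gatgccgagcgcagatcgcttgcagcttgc
The first 4 were past the test's threshold in at least 1 comparison, RPS7 and RPS25 had the 2 lowest log2 fold changes for ITE in hypoxia, and RPS27L, the paralog of RPS27, held no tract in this window. The motifs ACGTG and GCGTG, the cores bound by HIF and AHR with ARNT, were searched on either strand of the 300-base windows, which can hold both and in which CACGTG counts as ACGTG on each strand. They were found in 21 (32.8%) and 37 (57.8%) of the 64 genes, against 24.9% and 40.6% of all genes in the table.

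Total counts per library ranged from 770094 (hypoxia + DMSO replicate 2, where 3 counts made 3.90 CPM) to 93851342. Induction of NDRG1 by hypoxia (log2 fold change 3.25, edgeR adjusted p = 5.679e-15) and of CYP1B1 by ITE (2.51, adjusted p = 7.638e-09) followed the labels. The renal marker PAX8 had 190.6 to 476.1 CPM. Other renal markers were lower: PAX2 had 17.1 to 63.9 CPM, CDH16 3.11 to 38.6 and LHX1 0.19 to 4.59. The leukocyte markers PTPRC, CD3E and CD14 stayed at or under 0.743 CPM in every library. In 3 libraries, GC content and transcript length fitted over 10% of the variance of genes that are not ribosomal: hypoxia + DMSO replicate 1 (15.3%), hypoxia + ITE replicate 3 (15.0%) and hypoxia + ITE replicate 6 (41.2%), against at most 8.65% elsewhere. Each comparison below is therefore given with and without these 3 libraries, a choice made after the data were seen. They are all hypoxic, so in each hypoxic group the effect of oxygen is estimated with them or from 5 and 4 libraries. Nothing in bulk counts tells more ribosomal protein mRNA per cell from less of the other mRNAs.

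In normoxia + DMSO, the 82 genes took 7.77% ± 0.501 of a library's counts (SD, n = 6), with a range of 7.23% to 8.52%. The share was 8.07% ± 0.473 in normoxia + ITE (n = 6), 9.15% ± 1.59 in hypoxia + DMSO (n = 6) and 9.85% ± 2.30 in hypoxia + ITE (n = 6). The 3 libraries standing apart had the highest shares of all, 12.3%, 12.6% and 12.8%, and the next highest was 9.62%. Without them the hypoxic groups stood at 8.53% ± 0.509 (n = 5) and 8.44% ± 0.867 (n = 4), within 1 percentage point of both normoxic groups.

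**Figure D1:**
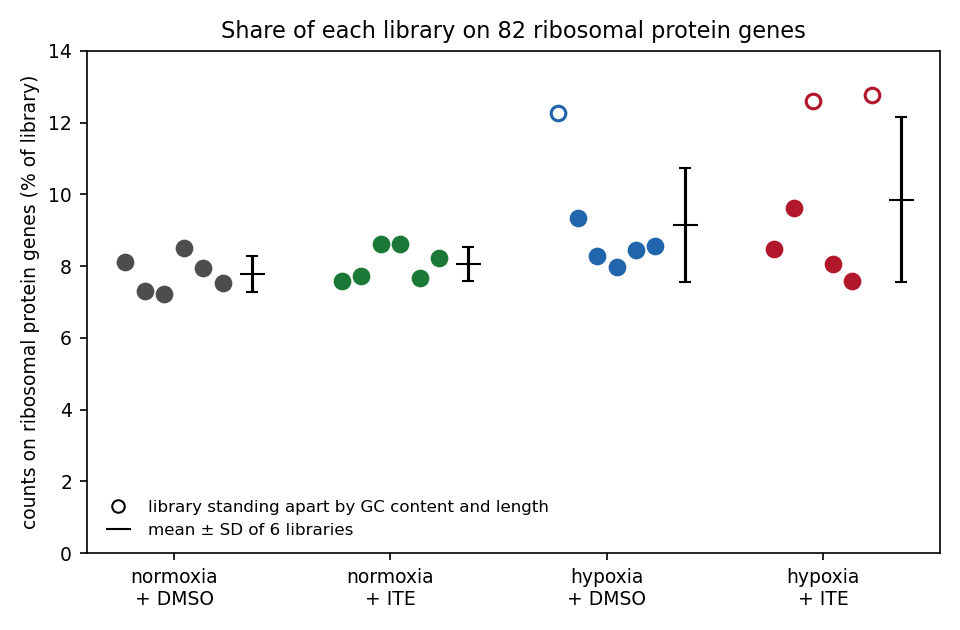
Share of each library's counts on the 82 ribosomal protein genes, in percent, by group, with 1 point per library and the mean ± SD of 6 libraries beside it. Open points are the 3 libraries standing apart, which lie above 12% while the other 21 lie between 7.23% and 9.62%.

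Small-subunit genes took 42.1% of the ribosomal protein counts (40.4% to 43.7% over the 24 libraries) and large-subunit genes 57.8% (56.0% to 59.5%). Per kb of transcript, the median gene level was 1567 CPM per kb for the small subunit and 1621 CPM per kb for the large. The balance of the subunits thus moved by under 4 percentage points over all libraries, the 3 standing apart included.

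The highest levels per kb over all libraries were those of RPS2 (5265 CPM per kb), RPS14 (3661), RPL41 (3318), RPL13 (2876) and RPS3 (2821). RPS2 and RPS3 line the channel where mRNA enters the small subunit, RPS14 sits on its platform, and RPL41 is a very short basic peptide. RPS2 alone held 4.89% of the ribosomal protein counts. The lowest tested genes were RPL39L (45.2 CPM per kb), RPL14 (97.4), RPS18 (97.5), RPS27L (132.8) and RPS28 (301.7). RPL39L, known from testis, had a count in every library here. RPL14's place rests on annotated transcripts with a median of 7072 bases, and its unscaled level was 688.5 CPM. RPS28 had 401.2 CPM over an annotated 1330 bases. RPS18 had 55.5 CPM over 569 bases, and why its counts were low was not tested.

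**Figure D2:**
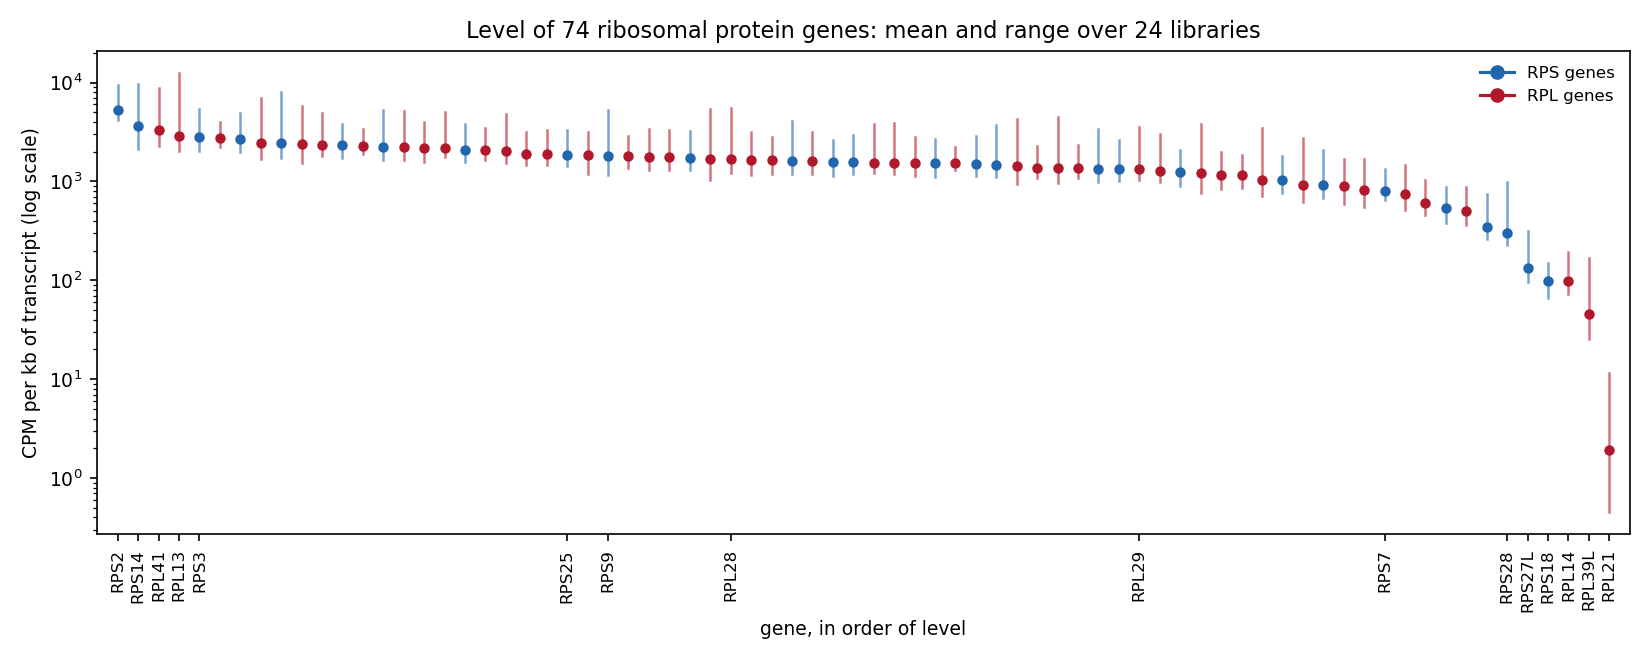
Level of 74 ribosomal protein genes in CPM per kb of transcript (log axis), ordered by the mean over 24 libraries (points), with lines from the lowest to the highest library and names for 16 of them. RPS2 heads the order at 5265, RPS28 has 301.7, and RPL21 ends it at 1.94.

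Not every gene could be tested. Of the 82 genes, 77 passed the filter on low counts. Among those that did not, RPL21, with 133 annotated pseudogenes, had 456 counts in all, and 123 of them were in hypoxia + ITE replicate 3. RPL3L, known from striated muscle, had 5 counts (3 in normoxia + DMSO replicate 4 and 2 in hypoxia + ITE replicate 4), and RPL10L, known from testis, had 0. Across the 81 genes with an annotated length, level per kb and number of named pseudogenes had a Spearman's rho of -0.08, and the median level was 1370 CPM per kb in the 27 genes with at least 20 pseudogenes and 1608 in the other 54. The authors kept uniquely mapped reads, so levels of single genes are uncertain where such copies exist.

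Of the paralogs within the rule, 4 stood far below their partners. Per kb of transcript, RPS27L had 132.8 CPM and RPS27 1583 CPM, RPL39L had 45.2 CPM and RPL39 1673 CPM, and RPL3 and RPL10 had 2206 and 2728 CPM where RPL3L and RPL10L were at or near 0.

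ITE in normoxia did not move these genes past the threshold. None of the 77 tested genes was called higher or lower (edgeR quasi-likelihood test with Benjamini-Hochberg adjustment over 11735 genes, threshold 0.05), where 0.0511% of all genes were called higher and 0% lower. At an unadjusted p under 0.05 the count was 0 with edgeR (all genes higher: 0.775%) and 0 with DESeq2, and DESeq2 also called 0. These fits share 1 estimate of spread with the hypoxic libraries. On the compared groups alone the unadjusted count was 4 (all genes higher: 3.1%). With sample quality weights (limma) it was 17 (all genes higher: 4.99%), with a median of 0.14, 74 of 77 positive and 0 called. The median log2 fold change was 0.09 (all genes: 0), and 71 of 77 genes had a positive value, against 50.1% of all genes. The highest were RPS18 (0.25 ± 0.179, SE) and RPL9 (0.23 ± 0.197), and the lowest RPL39L (-0.12 ± 0.298) and RPL13 (-0.05 ± 0.291). Without the 3 libraries standing apart the median was 0.08, 71 of 77 genes were positive (all genes: 47.5%), 0 were called (all genes higher: 0.219%) and 2 were higher at an unadjusted p under 0.05 (all genes: 2.15%).

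Hypoxia with DMSO gave small positive values throughout, and none passed the threshold. The 77 genes had log2 fold changes from 0.16 (RPL29) to 0.50 (RPL39), all positive, with a median of 0.33 (all genes: -0.003, 49.4% positive). edgeR called 0 of them, where 1.16% of all genes were called higher and 0.136% lower. DESeq2 called 0, where it called 1.73% of all genes higher. At an unadjusted p under 0.05, 38 were higher with edgeR (49.4% of the 77, against 5.41% of all genes) and 39 with DESeq2 (all genes: 6.28%). The lowest adjusted p was 0.1611 for RPL13A (edgeR).

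The range of the small-subunit genes was 0.18 to 0.48 with a median of 0.37 (30 genes), and that of the large-subunit genes 0.16 to 0.50 with a median of 0.31 (45 genes). RPL5 and RPL11, which carry the 5S ribosomal RNA and can bind MDM2, had 0.33 ± 0.138 and 0.27 ± 0.234. The stalk genes RPLP0, RPLP1, RPLP2 and RPL12, whose proteins recruit elongation factors, ranged from 0.23 to 0.32. RPS6, the S6 kinase substrate, had 0.42 ± 0.145, and RPSA, which also serves as a laminin receptor precursor, had 0.36 ± 0.21. Without the 3 libraries standing apart, the median was 0.20 for the small subunit (0.04 to 0.33) and 0.19 for the large (0.03 to 0.28). RPL5 and RPL11 then had 0.18 ± 0.075 and 0.20 ± 0.09, the stalk genes 0.09 to 0.16, RPS6 0.24 ± 0.082 and RPSA 0.16 ± 0.079.

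In 7 genes no hypoxia + DMSO library overlapped a normoxia + DMSO library: RPL26, RPL28, RPS3, RPS9, RPS19, RPS25 and RPS26. This is 7 of 77, where 1.80% of all genes were higher without overlap. RPL26, RPS19 and RPS26 were named after their values were seen. For RPS3, normoxia + DMSO ran from 1817 to 2350 CPM (median 2138) and hypoxia + DMSO from 2397 to 3380 CPM (median 2573). The gap between the groups was narrow, 2350 against 2397 CPM, and the highest value was in hypoxia + DMSO replicate 1. RPS3 differed by 0.37 ± 0.152 (edgeR adjusted p = 0.3879).

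The size of the difference depended on hypoxia + DMSO replicate 1. Its mean deviation over the 77 genes was 0.67 on the log2 CPM scale, and 77 of 77 genes lay above their mean over the 24 libraries. Replicate 2, the shallowest library, had 0.21 and 76 of 77, and the other 4 replicates lay between -0.09 and -0.01. Leaving out replicate 1 alone took the median log2 fold change from 0.33 to 0.20 and the unadjusted count from 38 to 1, where the share of all genes higher at that p went from 5.41% to 3.91%.

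Without the 3 libraries standing apart, the spread narrowed and 3 genes rose with hypoxia in DMSO, among them RPS9 (0.33 ± 0.09) and RPS3 (0.29 ± 0.078), where 2.71% of all genes were called higher. All 77 values stayed positive (all genes: 45.2%), with a median of 0.19 and a range of 0.01 to 0.33, and 54 were higher at an unadjusted p under 0.05 (all genes: 7.63%). With the 2 shallowest libraries also left out, 0 were called and the median was 0.16, with 76 of 78 tested genes positive (all genes: 47.9%) and 27 higher at an unadjusted p under 0.05 (all genes: 8.45%), while 2.96% of all genes were called higher.

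Hypoxia with ITE gave a wider range of values. The 77 genes ran from -0.09 (RPS18) to 0.96 (RPL13), with a median of 0.39 (all genes: 0.02), and 75 were positive (all genes: 53.0%). RPS9 and RPL29 were called higher, 2 of 77, where 1.89% of all genes were called higher and 0.46% lower. The calls were thus near the share of all genes. At an unadjusted p under 0.05, 53 genes were higher, against 13.9% of all genes. RPL13 (0.96 ± 0.293) did not pass with an edgeR adjusted p of 0.07596, and RPS7 had -0.001 ± 0.135.

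RPS9 encodes a small-subunit protein that binds ribosomal RNA early in assembly, and lies on the plus strand at chr19:54704677-54752862 (GRCh37). It had 833.4 to 1072 CPM in normoxia + DMSO (median 980.5), 919.4 to 1055 in normoxia + ITE (median 989.4), 1105 to 1753 in hypoxia + DMSO (median 1252) and 1003 to 3791 in hypoxia + ITE (median 1379). All 6 hypoxia + DMSO libraries and 4 of 6 hypoxia + ITE libraries lay above the highest of normoxia + DMSO. The 2 highest hypoxia + ITE values, 3791 and 2955 CPM, were replicates 6 and 3. RPS9 differed by 0.96 ± 0.231 in hypoxia with ITE (edgeR adjusted p = 0.02157), by 0.28 ± 0.095 without the libraries standing apart, and was then not called.

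RPL29 encodes a small lysine-rich protein of the large subunit and lies on the minus strand at chr3:52027538-52029911 (GRCh37). It had 745.3 to 860.9 CPM in normoxia + ITE (median 791.7) and 815.6 to 2599 CPM in hypoxia + ITE (median 982.4). The groups overlapped, and replicate 6 of hypoxia + ITE held the highest value. RPL29 differed by 0.69 ± 0.191 (edgeR adjusted p = 0.04923) and by 0.18 ± 0.071 without the libraries standing apart, where it was not called.

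RPL13, of the large subunit, had the widest range. It had 1452 to 1691 CPM in normoxia + ITE (median 1586) and 1516 to 8949 CPM in hypoxia + ITE (median 2082). The value of 8949 was in replicate 6, and the other 5 libraries ended at 2238 CPM. RPS25, a small-subunit protein needed for several internal ribosome entry sites, went the other way in that library: 693.6 CPM was the lowest of the group, whose highest was 1397 CPM.

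The calls of this comparison changed with single libraries. Without hypoxia + ITE replicate 3 or 6 they were 0, and without replicate 1, 2, 4 or 5 they were 14, 5, 22 and 23. In the same fits, 1.42% and 1.63% of all genes were called higher without replicate 3 or 6, and 3.71%, 2.10%, 5.12% and 5.41% without replicate 1, 2, 4 or 5, so calls over all genes moved with the same libraries. Without normoxia + ITE replicate 1, 2 or 5 they were 0, and without replicate 3, 4 or 6 there was 1, where 1.16% to 1.35% of all genes were called higher. Without all 3 libraries standing apart, 0 genes were called (all genes higher: 1.79%), 5 were higher at an unadjusted p under 0.05 (all genes: 6.33%), the median was 0.06 and 62 of 77 were positive (all genes: 49.6%).

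**Figure D3:**
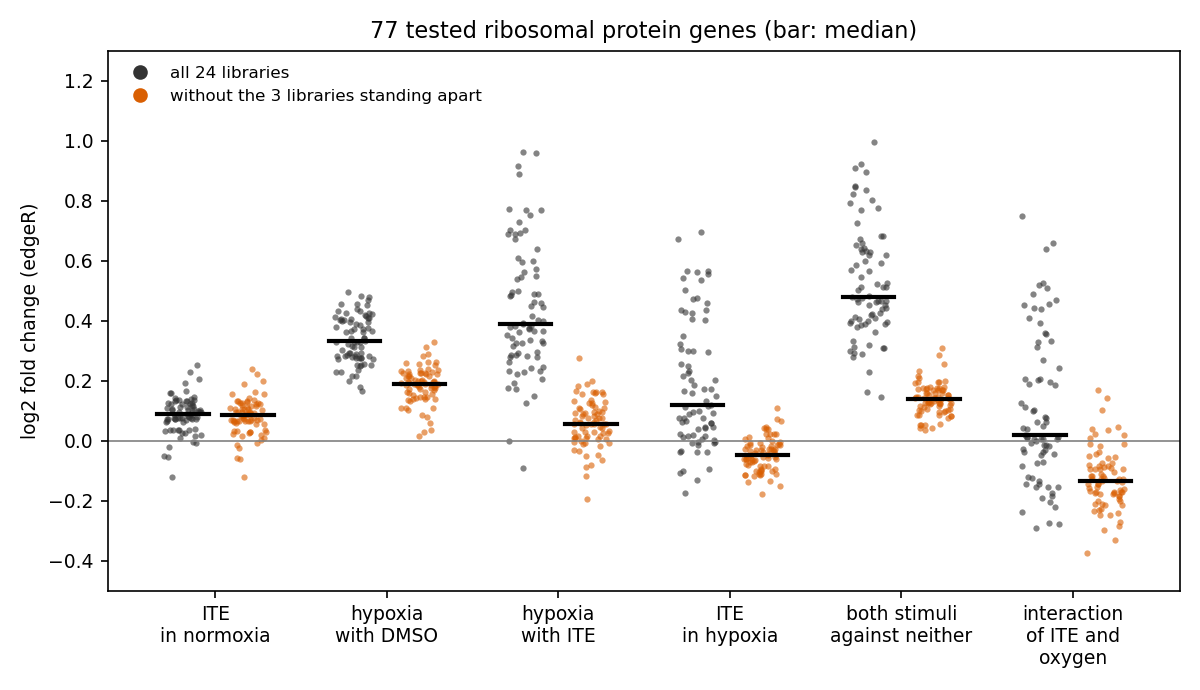
Log2 fold changes (edgeR) of the 77 tested ribosomal protein genes in each comparison, with 1 point per gene and a bar at the median, for all 24 libraries (dark) and without the 3 libraries standing apart (orange). The median for hypoxia with ITE falls from 0.39 to 0.06, that for hypoxia with DMSO from 0.33 to 0.19, and that for ITE in normoxia from 0.09 to 0.08.

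ITE in hypoxia gave values on either side of 0. They ran from -0.17 (RPS25) to 0.70 (RPL13), with a median of 0.12 (all genes: 0.02) and 63 of 77 positive (all genes: 52.8%). edgeR and DESeq2 each called 0, where edgeR called 0.0597% of all genes higher and 0% lower. An unadjusted p under 0.05 was found in 13 and 12 genes (all genes higher: 7.48% with edgeR, 8.72% with DESeq2). Without the libraries standing apart the median was -0.05, 14 of 77 genes were positive (all genes: 50.2%), 0 were called (all genes higher: 0.0591%) and 1 was lower at an unadjusted p under 0.05 (all genes: 1.25%). The direction of this comparison therefore turned with these libraries. Without hypoxia + ITE replicate 6 alone, the median was -0.03 and 36 of 77 were positive (all genes: 51.3%). With the 2 shallowest libraries left out besides the 3, it was -0.01, with 32 of 78 positive (all genes: 47.8%).

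Both stimuli against neither gave positive values in all 77 genes (all genes: 52.4%), from 0.15 (RPS7) to 0.996 (RPS9), with a median of 0.48 (all genes: 0.02). Of the 77, 4 rose, RPS9, RPS3 and RPL28 among them, where 1.79% of all genes were called higher and 0.528% lower. At an unadjusted p under 0.05, 72 were higher, against 13.7% of all genes. RPS9 had 0.996 ± 0.232 (edgeR adjusted p = 0.01474) and RPS3 0.60 ± 0.152 (edgeR adjusted p = 0.02971).

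RPL28 encodes a protein of the large subunit and lies on the plus strand at chr19:55897300-55914618 (GRCh37). It had 854.8 to 964.5 CPM in normoxia + DMSO (median 873.5) and 888.4 to 3682 CPM in hypoxia + ITE (median 1091), a difference of 0.82 ± 0.227 (edgeR adjusted p = 0.04982). Replicate 6 held the highest hypoxia + ITE value, and 5 of the 6 libraries lay above the highest normoxia + DMSO library. Without the libraries standing apart, RPL28 differed by 0.17 ± 0.075.

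Here too the calls changed with single libraries. Without hypoxia + ITE replicate 3 they were 0 and without replicate 6 there were 2, whereas without replicate 1, 2, 4 or 5 they were 22, 11, 29 and 39. The shares of all genes called higher were 1.41% and 1.85% without replicate 3 or 6, and 3.57%, 1.84%, 4.22% and 4.97% without replicate 1, 2, 4 or 5. Leaving out normoxia + DMSO replicate 4 gave 2, and leaving out any other normoxia + DMSO replicate gave 1, with 1.21% to 1.41% of all genes called higher. Without the 3 libraries standing apart 0 genes were called (all genes higher: 2.09%), 16 were higher at an unadjusted p under 0.05 (all genes: 6.27%), and all 77 stayed positive (all genes: 47.8%) with a median of 0.14. The 5 comparisons share their groups pairwise, so their values are not independent of each other.

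The interaction of ITE and oxygen was not detected. edgeR and DESeq2 each called 0 of 77, and edgeR called 0% of all genes in either direction. None of the 77 had an unadjusted p under 0.05 with either (all genes higher: 2.47% with edgeR, 3.14% with DESeq2). The median was 0.02 with 46 positive (all genes: 52.9%), and RPL13 had the highest value (0.75 ± 0.412) and RPS18 the lowest (-0.29 ± 0.257). Without the libraries standing apart the median was -0.13, 9 of 77 were positive (all genes: 52.0%), and 4 (RPL9, RPL36A and RPS6 among them) were lower at an unadjusted p under 0.05, against 0.945% of all genes. RPL36A was named after its value was seen.

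The genes varied together from library to library. Over all 24 libraries, the 2926 pairs of genes had a median Pearson's r of 0.824 for their deviations from the group means, and 0.729 over the 21 libraries that do not stand apart. RPS12 followed the mean of the other genes most closely (r = 0.984), then RPL30 (0.978), and RPS25 (0.521), RPS18 (0.580) and RPL41 (0.588) least. RPL39L (0.553), RPL13 (0.509), RPL39 (0.483) and RPL38 (0.471) had the largest SD of log2 CPM around the group means, and RPL10 (0.163), which joins the large subunit late, and RPL15 (0.173) the smallest.

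Replicates were closer in normoxia. The median SD of a gene's log2 CPM was 0.14 in normoxia + DMSO and 0.116 in normoxia + ITE (n = 6 each), and 0.323 in hypoxia + DMSO and 0.473 in hypoxia + ITE (n = 6 each). Without the libraries standing apart the hypoxic values were 0.133 (n = 5) and 0.154 (n = 4).

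The 3 libraries standing apart were above the others in nearly all genes, but the sizes differed from gene to gene. Against the mean of the other 21 libraries, hypoxia + DMSO replicate 1 was higher in 77 of 77 genes (median 0.81 on the log2 scale, 0.35 to 1.28), hypoxia + ITE replicate 3 in 76 (median 0.79, -0.18 to 1.59) and hypoxia + ITE replicate 6 in 74 (median 0.94, -0.29 to 2.43). Across the 77 genes these deviations had a Pearson's r of -0.055 between the first and the second, -0.336 between the first and the third, and -0.003 between the second and the third. RPL41 and RPS14 were highest in hypoxia + ITE replicate 3 (1.59 each) and had -0.09 and 0.57 in replicate 6. RPL13 and RPL39L were high in replicate 6 (2.43 and 2.21) and had 0.43 and 0.88 in replicate 3. These correlations are across genes of the same libraries, which are not independent replicates.

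GC content went with the size of the change. Transcripts of the 77 genes had a median GC content of 50.2% (other tested genes: 49.1%) and a median length of 683 bases (other tested genes: 1963 bases). Across the 77, log2 fold change and GC content had a Pearson's r of -0.567 for ITE in normoxia, -0.518 for hypoxia with DMSO, 0.531 for hypoxia with ITE and 0.573 for ITE in hypoxia. Across the 11380 other genes with an annotated GC content, r was -0.24, -0.075, 0.435 and 0.493. The sign was thus opposite in the same oxygen contrast with and without ITE, as was that of the single libraries: r of the deviation with GC content was -0.556 in hypoxia + DMSO replicate 1 and 0.476 in hypoxia + ITE replicate 6.

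In hypoxia with ITE, the median was 0.56 over the 38 genes of higher GC content and 0.34 over the other 39. In hypoxia with DMSO these were 0.28 and 0.39. Without the libraries standing apart, r was 0.559 in hypoxia with ITE, where the medians were 0.10 and 0.01, and -0.231 in hypoxia with DMSO, where they were 0.18 and 0.20. Length within the 77 genes had a Spearman's rho between -0.18 and 0.09 with the log2 fold change in the 6 contrasts. The part of GC content in the calls was not tested beyond the offsets for GC content and length. With them, hypoxia with ITE had 1 call (all genes higher: 1.61%) and a median of 0.37 (all genes: 0.02). Hypoxia with DMSO had 0 calls (all genes higher: 1.95%) and a median of 0.36 (all genes: 0.05).

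**Figure D4:**
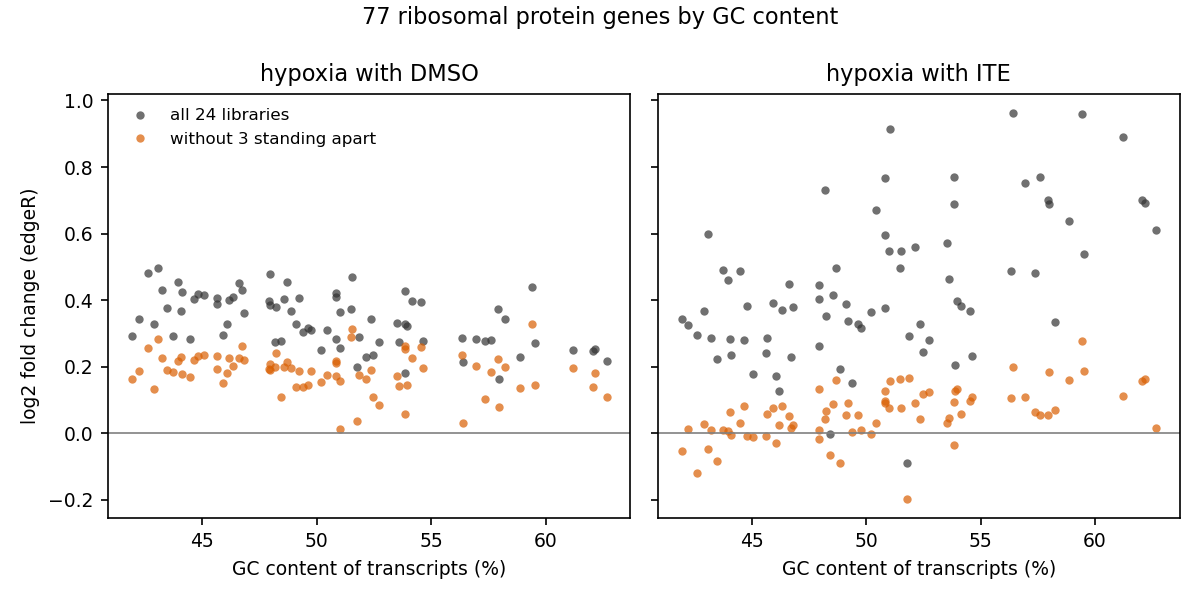
Log2 fold change (edgeR) of the 77 tested ribosomal protein genes against the GC content of their transcripts in percent, for hypoxia with DMSO (left) and hypoxia with ITE (right), for all 24 libraries (dark) and without the 3 libraries standing apart (orange). With all libraries the points fall with GC content on the left (r = -0.518) and climb on the right (r = 0.531).

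Length was also compared library by library. For each library, the deviations of the other genes from their mean were correlated with transcript length, and a negative rho means that short transcripts were over-represented. Over the 21 libraries that do not stand apart, this rho and the mean deviation of the ribosomal protein genes had a Pearson's r of -0.672 and a Spearman's rho of -0.663, with r = -0.674 over the 19 left without the 2 farthest on the length measure and -0.666 within groups. For GC content in place of length, r was 0.033. Both measures come from the same library, so this is a description.

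The 3 libraries standing apart had a rho with length of -0.326, -0.371 and -0.182 and a mean deviation of 0.67, 0.68 and 0.92. The deviation that GC content and length predicted for the 77 genes from all other genes was 0.08, 0.19 and 0.09. The remaining 0.60, 0.49 and 0.83 was not accounted for by the 2 properties as fitted. Genes of the mitochondrial ribosome were also above their mean in the 3 libraries (0.48, 0.51 and 0.35), as were TOP translation factors (0.38, 0.35 and 0.58), and genes of ribosome biogenesis less so (0.04, 0.20 and 0.29).

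**Figure D5:**
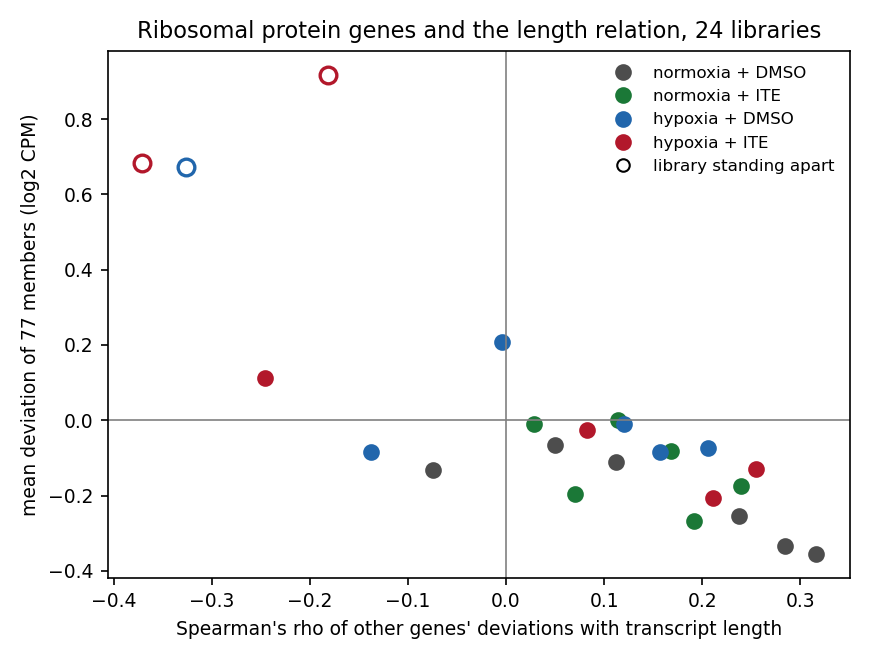
Mean deviation of the 77 ribosomal protein genes from their mean over 24 libraries (log2 CPM) against Spearman's rho of the other genes' deviations with transcript length, with 1 point per library coloured by group. Open points are the 3 libraries standing apart, at 0.67, 0.68 and 0.92, and the other points fall as rho grows (r = -0.672 over 21 libraries).

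Other genes of the translation machinery were counted in the same fits, first with all libraries. Of 75 tested genes of the mitochondrial ribosome, 0 were called in any comparison, and their median log2 fold change was 0.11 in hypoxia with DMSO, 0.22 in hypoxia with ITE and 0.25 for both stimuli against neither. Of 18 TOP translation factors, 0 were called, and the medians were 0.25, 0.24 and 0.31. EEF1G, a subunit of elongation factor 1, had 0.81 ± 0.237 for both stimuli against neither (edgeR adjusted p = 0.06566). Of 7 TOP noncoding host genes, GAS5, a snoRNA host whose spliced RNA carries a TOP tract, rose with both stimuli against neither (0.60 ± 0.165, edgeR adjusted p = 0.04982) and no other call was made. In that comparison 1.79% of all genes were called higher.

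Without the 3 libraries standing apart, the medians of these lists were lower and some members were called in hypoxia with DMSO. In that comparison 2.71% of all genes were then called higher and 45.2% had a positive value. The calls in the mitochondrial ribosome were near that share. The median of the mitochondrial ribosome was 0.01 in hypoxia with DMSO, -0.006 in hypoxia with ITE and 0.02 for both stimuli, and 2 of its 75 genes, MRPS6 (0.34 ± 0.078) and MRPL32 (0.34 ± 0.091), rose in hypoxia with DMSO. The TOP translation factors had medians of 0.16, 0.05 and 0.12, with all 18 positive in hypoxia with DMSO, where 3 rose: EEF2 (0.30 ± 0.07), the translocase of elongation, TPT1 (0.31 ± 0.089) and NAP1L1 (0.27 ± 0.076), a histone chaperone. EEF1G had 0.15 ± 0.083 for both stimuli. GAS5 rose in hypoxia with DMSO (0.35 ± 0.091, edgeR adjusted p = 0.02606) and was not called for both stimuli (0.27 ± 0.096, edgeR adjusted p = 0.1644).

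Among 39 ribosome biogenesis factors, 1 rose and 2 fell with both stimuli against neither, and none was called in the other comparisons. For both stimuli, 1.79% of all genes were called higher and 0.528% lower. FBL, the rRNA methyltransferase fibrillarin, rose by 0.82 ± 0.198 (edgeR adjusted p = 0.02032), UTP20 fell by 0.60 ± 0.15 (edgeR adjusted p = 0.02487) and PNO1 fell by 0.43 ± 0.113 (edgeR adjusted p = 0.03858). The latter pair act in processing of the small subunit. The list's median was 0.04. Without the 3 libraries standing apart, that median was -0.12, and PNO1 (-0.42 ± 0.106, edgeR adjusted p = 0.02241) and RRS1 (-0.40 ± 0.092, edgeR adjusted p = 0.01051), a factor of large-subunit assembly, fell with both stimuli. UTP20 (-0.42 ± 0.122, edgeR adjusted p = 0.05925) and FBL (0.27 ± 0.09, edgeR adjusted p = 0.1265) were then not called for both stimuli. FBL rose in hypoxia with DMSO (0.30 ± 0.086, edgeR adjusted p = 0.04118) and RRS1 fell in hypoxia with ITE (-0.37 ± 0.093, edgeR adjusted p = 0.02107). Of all 11849 genes in that fit, 115 were called lower for both stimuli and 79 in hypoxia with ITE. In hypoxia with DMSO, 2.71% were called higher. Of 15 tested genes of rRNA transcription, 0 were called, and RRN3, an RNA polymerase I factor, had -0.36 ± 0.126 in hypoxia with ITE (edgeR adjusted p = 0.1171) and -0.22 ± 0.101 without those libraries.

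Of 17 regulators of TOP translation, DDIT4, an inhibitor of mTORC1, rose by 3.53 ± 0.168 in hypoxia with DMSO (edgeR adjusted p = 8.137e-15), by 3.14 ± 0.166 in hypoxia with ITE (edgeR adjusted p = 1.188e-13) and by 3.16 ± 0.165 with both stimuli (edgeR adjusted p = 9.219e-14), and without the libraries standing apart by 3.56 ± 0.141, 3.18 ± 0.144 and 3.23 ± 0.143. No other regulator was called in any comparison, and the median of the list was -0.02 in hypoxia with DMSO. FAU and GNB2L1 had 0.24 and 0.23 in hypoxia with DMSO and 0.26 and 0.48 in hypoxia with ITE, neither of them called. Of the 4 paralogs outside the rule, RPL7L1 had -0.26 and RPL22L1 0.38 ± 0.178 in hypoxia with DMSO (edgeR adjusted p = 0.4889), and 0 were called in any comparison.

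Genes with and without a tract within 5 bases of an annotated start had overlapping values. RPL9, RPL15, RPL27, RPS15 and RPS26, counted as without one, held such a tract farther into a window. The split therefore follows the annotated start and does not set genes with a tract against genes free of one. In hypoxia with DMSO the 52 tested genes with a tract within 5 bases of an annotated start were centred on a median of 0.35 (0.16 to 0.50) and the 10 without one on 0.34 (0.24 to 0.48). In hypoxia with ITE these were 0.39 (-0.09 to 0.96) and 0.33 (0.15 to 0.70), and without the libraries standing apart 0.06 and 0.02. The ranges overlapped in each case, and no test was made over the lists.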

How the data were processed

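PolyA-selected RNA of 24 libraries (4 groups of 6 replicates) was sequenced by the authors, who trimmed adaptors (Trim Galore 0.3.3), aligned reads to GRCh37 (HISAT2; version 2.05 in the submitters' processing notes), removed reads that were not uniquely mapped (Picard 2.0.1) and counted reads per gene (HTSeq 0.5.4p3). The authors deposited raw counts per gene symbol and library, not normalised, and whether counting used strand is not given in the sources used here. Replicates were described as independent. Identical libraries were not found.

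Counts were analysed with R 4.3.3 and edgeR 4.0.16 (filterByExpr with a minimum count of 10, TMM, a quasi-likelihood fit with 1 mean per group over all 24 libraries, two-sided p-values adjusted by the Benjamini-Hochberg method over 11735 genes, threshold 0.05). DESeq2 1.42.0 and limma 3.58.1 (sample quality weights) served as alternatives. CPM were scaled by TMM, log2 CPM used a prior count of 2, and levels per kb used the median length of protein-coding transcripts in GENCODE lifted to GRCh37. Annotation gave a length and a GC content to 97.6% of tested genes, and their offsets used splines with 5 degrees of freedom fitted on genes outside the list. The SE was the log2 fold change over the root of the F statistic. Start windows and their coordinates came from RefSeq (GRCh38.p14) and were matched by symbol. RPL23, RPL23A, RPL30, RPL37, RPL39L, RPL3L, RPL5, RPL7, RPL8, RPS15A, RPS2 and RPS20 were among those with no entry.

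The test was run on simulated data with 200 genes changed. Counts were drawn gene by gene from the real mean levels, library sizes and dispersions, without shifts shared by the genes of a library. The rates below therefore do not cover such shifts. For hypoxia with DMSO (11687 genes) the genes found again were 82% at a log2 change of 1 and 24% at 0.5, and 7.02% of its calls were false. For hypoxia with ITE (11673 genes) these were 81%, 17% and 3.92%.

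Members and lists were chosen with earlier results of these data known. Genes named are those called in any comparison, the 2 highest and 2 lowest log2 fold changes in each comparison, the 5 highest and 5 lowest levels per kb, the 4 largest and 2 smallest SDs around the group means, paralog pairs, the stalk genes, RPSA, RPL5, RPL11, RPS6 and genes not tested. Counts and medians cover all members, and the values of some genes are not reported here. Of other lists, genes past the threshold or with the lowest p were named. Floors of 3 counts ranged from 0.032 to 3.90 CPM and cover counting error only.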

Additional observations from a re-analysis of the deposited data

Results flagged for a closer look

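A library was looked at again where it lay far from the other 5 of its group, by Dixon's 95% criterion for 6 values. Of 124 groups checked (31 measures in 4 groups), 31 met it, where chance flags about 1 in 20, and the measures move together, so the count is not of independent events. The share of counts on ribosomal protein genes was 12.26% in hypoxia + DMSO replicate 1, with the other 5 replicates between 7.98% and 9.35%.

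In hypoxia + DMSO replicate 1, the genes far above the rest of the group, with their CPM, were RPL13 (2962), RPL14 (961.8), RPL15 (1656), RPL38 (724.4), RPL41 (3614), RPL5 (2270), RPL9 (1212), RPS14 (4227), RPS25 (1592), RPS27L (155.5), RPS7 (970.2), RPS9 (1753) and RPSA (2407). In hypoxia + ITE replicate 3, the genes far above the rest of the group, with their CPM, were RPL10 (2612), RPL22 (1021), RPL41 (5040), RPS14 (6826) and RPS27L (254.2). In hypoxia + ITE replicate 6, the genes far above the rest of the group, with their CPM, were RPL13 (8949), RPL28 (3682), RPL3 (6239), RPL38 (1500), RPL39 (2113), RPL39L (122.4), RPLP0 (4143), RPLP2 (2310), RPS28 (1302) and RPSA (3624). 

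The remaining 2 were low values in normoxia: RPL11 had 806.9 CPM in normoxia + ITE replicate 1, with the others between 899.7 and 953.4, and RPL13 had 1490 CPM in normoxia + DMSO replicate 6, with the others between 1634 and 1709. All 29 of the other values lay in the 3 libraries in which GC content and length fitted over 10% of the variance of other genes.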

How the results depend on the processing

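Of 358 values recomputed under an alternative, 303 stayed close to the main value, and no called value changed sign. Close meant a like number of calls, or a median or share that moved by less than an SD between libraries. Direction was not part of this rule. No setting moved the calls for ITE in hypoxia or the interaction from 0, while their medians, which were not called, became -0.05 and -0.13 without the 3 libraries standing apart. DESeq2 called 15 genes in hypoxia with ITE and 23 for both stimuli against neither, in place of 2 and 4, where it called 4.32% and 4.24% of all genes higher in place of 1.89% and 1.79%. For hypoxia with ITE, RLE size factors, library totals, no filter on low counts and offsets for GC content and length gave 1 each. All genes called higher were 1.87%, 1.05%, 1.08% and 1.61% in these fits. Fits of the compared groups alone, sample quality weights, the libraries standing apart left out (also with the 2 shallowest) gave 0. There, 0.702%, 3.36%, 1.79% and 2.06% of all genes were called higher. For both stimuli against neither, library totals and sample quality weights gave 1, and no filter and the offsets 2. The compared groups alone and both of the omissions gave 0, the omissions with medians of 0.139 and 0.13 in place of 0.479. In that order, 0.946%, 3.58%, 1.08%, 1.98%, 0.669%, 2.09% and 2.26% of all genes were called higher. For hypoxia with DMSO, sample quality weights called 15, the compared groups alone 1 and leaving out the libraries standing apart 3. In these fits 4.37%, 1.62% and 2.71% of all genes were called higher, in place of 1.16%. Leaving out 1 library at a time gave 0 to 23 calls for hypoxia with ITE, 0 to 39 for both stimuli against neither and 0 in the others. All genes called higher ranged from 1.16% to 5.41% for hypoxia with ITE and from 1.21% to 4.97% for both stimuli.

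The replicate number as a block gave 0 calls for hypoxia with ITE and 1 for both stimuli against neither, and no change in the other comparisons. With it, 1.64% and 1.59% of all genes were called higher in hypoxia with ITE and for both stimuli. With the offsets for GC content and length besides, the block gave 0, 2 and, for hypoxia with DMSO, 1 (all genes higher: 1.85%, 2.36% and 2.41%). On the compared groups alone, the block gave 1 for ITE in normoxia, 1 for hypoxia with DMSO and 0 for hypoxia with ITE and both stimuli. The shares of all genes called higher were 1.39%, 1.75%, 0.477% and 0.471%. In that fit for ITE in normoxia, 20 of 77 had an unadjusted p under 0.05 (all genes higher: 6.59%). Same-numbered libraries deviated together by a mean correlation of 0.237 for ITE in normoxia, and 0.025 to 0.115 in the other pairwise comparisons, not over 0.1 in every pair of any, so the numbers were not taken as pairs. For ITE in normoxia 5 of 6 libraries had their own number as best match, a hint of pairing from the data and not from the design, and in the other pairwise comparisons 1 to 4 did.

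Scaling by library totals alone put the median of all genes at -0.13 for both stimuli against neither, and the ribosomal protein genes at 0.30, 0.43 above it. Precision is limited by 2 shallow hypoxic libraries (770094 and 1357702 counts) and by the 3 standing apart. In simulated data with the real library sizes, but no shift shared by the genes of a library, genes changed by 0.5 on the log2 scale were seldom recovered.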
